A study of Mus musculus with 60 samples.

Results

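The aryl hydrocarbon receptor pathway was followed through 8 genes: the receptor Ahr, its partner Arnt, the inhibitors Ahrr and Tiparp, the monooxygenases Cyp1a1, Cyp1a2 and Cyp1b1, and the aldehyde dehydrogenase Aldh3a1. Members were the array probes whose RefSeq accession belongs to one of these genes, 13 of the 55681 probes and 8 of the 20018 genes with a symbol. Cyp1a1 (NM_009992), Cyp1a2 (NM_009993) and Cyp1b1 (NM_009994) had 1 probe each. Ahr (NM_013464), Arnt (NM_001037737), Ahrr (NM_009644), Tiparp (NM_178892) and Aldh3a1 (NM_007436) had 2 probes each, and of such a pair the brighter is called probe 1 and stands for the gene where a single value is given.

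The 20 mice were males of the Muta™Mouse line, which carries a lacZ transgene for scoring mutations, aged about 10 weeks, and each gave lung, liver and forestomach RNA. All mice were gavaged daily for 28 days with olive oil, which held benzo(ghi)perylene (BghiP), a polycyclic aromatic hydrocarbon, at 0 (D0, the vehicle control, mice 1 to 5), 6.25 (D1, mice 6 to 10), 12.5 (D2, mice 11 to 15) or 25 mg/kg-bw/day (D3, mice 16 to 20). Tissues were taken 72 hours after the last gavage, so that a response which fades within that time could not be seen. Each array compared 1 tissue of 1 mouse (Cy5) with a common reference RNA of 11 mouse cell lines (Cy3), and values below are log2 ratios of Cy5 to Cy3, on 60 arrays in 12 groups of 5. A level is a log2 ratio, a difference or change is one log2 ratio minus another, and ratios of different probes are not set against each other.

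The receptor is a ligand-bound transcription factor that rests in the cytosol with heat shock protein 90 and moves to the nucleus when a planar aromatic ligand binds. There it pairs with Arnt on DNA that holds the core letters GCGTG and raises a battery of genes for the oxidation of aromatic compounds, of which Cyp1a1 is the classic example and Cyp1a2 is the member that liver expresses without any inducer. Ahrr competes for Arnt, and Tiparp, an ADP-ribosyltransferase, modifies the receptor. Both are themselves targets, so that the pathway limits its own activity.

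Sequence before the transcription start was at hand for 6 of the 8 genes (RefSeq, GRCm38.p6). The 250 bases are shown for the 4 members on whose values the results below turn or which differ most in motif content, 5′ to 3′ along the gene, with GCGTG or its reverse complement CACGC in capitals. They lie at chr9:57697363-57697612 (+ strand) for Cyp1a1, chr9:57683656-57683905 (− strand) for Cyp1a2, chr3:65528197-65528446 (+ strand) for Tiparp and chr13:74292332-74292581 (− strand) for Ahrr.
Cyp1a1: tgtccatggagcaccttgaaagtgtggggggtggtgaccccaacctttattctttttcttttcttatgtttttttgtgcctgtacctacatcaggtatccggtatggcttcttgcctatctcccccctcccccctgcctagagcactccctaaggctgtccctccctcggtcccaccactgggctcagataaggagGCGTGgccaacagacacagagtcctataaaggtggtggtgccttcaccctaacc
Cyp1a2: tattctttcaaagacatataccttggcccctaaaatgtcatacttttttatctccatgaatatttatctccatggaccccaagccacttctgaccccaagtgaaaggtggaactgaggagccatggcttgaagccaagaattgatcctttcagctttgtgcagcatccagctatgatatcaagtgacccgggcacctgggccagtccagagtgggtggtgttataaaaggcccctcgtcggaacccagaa
Tiparp: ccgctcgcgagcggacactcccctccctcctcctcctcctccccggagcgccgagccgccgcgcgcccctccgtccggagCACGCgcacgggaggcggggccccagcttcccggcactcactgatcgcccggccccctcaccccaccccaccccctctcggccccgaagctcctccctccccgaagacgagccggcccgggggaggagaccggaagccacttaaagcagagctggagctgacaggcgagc
Ahrr: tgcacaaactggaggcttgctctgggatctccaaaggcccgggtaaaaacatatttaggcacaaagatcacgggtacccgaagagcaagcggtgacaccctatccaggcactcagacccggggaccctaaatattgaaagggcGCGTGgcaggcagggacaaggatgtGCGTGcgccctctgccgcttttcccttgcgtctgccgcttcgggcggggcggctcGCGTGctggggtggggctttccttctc
Cyp1a1 held 1 match, 54 bases before the start, and Tiparp 1, on the other strand. Ahrr held 3, at 107, 82 and 27 bases, and Cyp1a2 held 0. Cyp1b1 and Arnt, not shown, held 1 each. Of 32851 promoters of the same length, 28.2% held at least 1 match on either strand and 2.67% held 3 or more. A match describes the letters and is not a bound site.

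Of all probes, 34.9% to 58.6% were well above background in Cy5 on the lung arrays, 36.3% to 48.3% on the liver arrays and 21.3% to 53.3% on the forestomach arrays, and the number of arrays limits the precision. Tissue labels were checked by markers. The 3 hepatocyte markers were above background on every liver array, the 4 alveolar type 2 cell markers on every lung array and the 7 squamous epithelium markers on every forestomach array. The 8 slides were shared unevenly, with 5 that held lung and forestomach arrays of all doses and 3 that held liver alone. Dose and column on the slide coincided on every slide and cannot be told apart. Some arrays carried RNA of another cell type. Lung of D0 mouse 1 had all 7 squamous markers above background, with a mean log2 ratio of 4.39 against at most 0.09 on the other 19 lung arrays, and all 5 skeletal muscle markers, at 5.15. Lung of D3 mouse 20 had all 3 hepatocyte markers, at 4.75, against at most 0.23. Forestomach arrays spanned −0.04 to 5.88 for the hepatocyte markers, with 0 of the 3 above background on 4 arrays, and 0.21 to 8.04 for the glandular stomach markers; the part of this tissue mixture in the forestomach values was not tested. Forestomach of D0 mouse 2 had all 4 alveolar type 2 cell markers above background, at 4.92 against at most 0.93 on the other 19 forestomach arrays. For the probe that stands for each gene, vehicle differences and D3 changes are also given without mice 1, 2 or 20 where named below. Forestomach values without every array that carried hepatocyte or glandular markers were not computed.

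**Figure D1:**
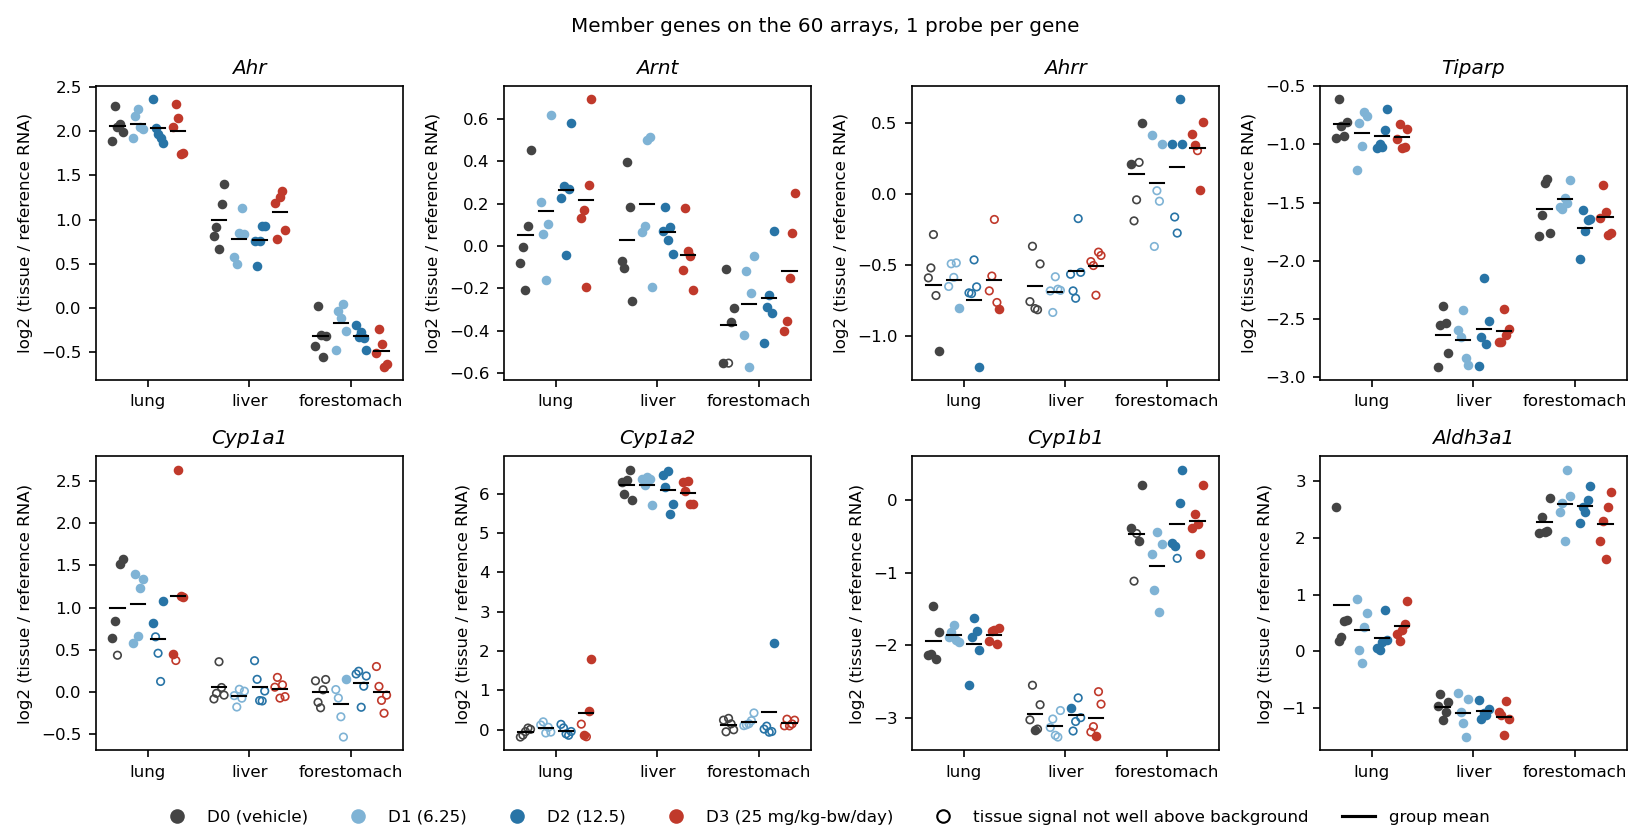
Log2 ratio of tissue to reference RNA (y axis) for the representing probe of each of the 8 genes on all 60 arrays, by tissue and dose (x axis). Each point is 1 mouse, open where the tissue signal was not well above background, and each line is a mean of 5 mice. The points of the 4 doses overlap within each tissue, and Cyp1a2 in liver sits between 5.49 and 6.61.

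In vehicle mice the members formed a different profile in each tissue. Lung had the most Ahr and Tiparp and was the tissue in which Cyp1a1 was detected. Liver had Cyp1a2 and the least Tiparp and Aldh3a1. Forestomach had the most Aldh3a1, Cyp1b1 and Ahrr and the least Ahr. In each of the 3 pairs of tissues 6 of the 8 genes (8 of the 12 probes tested) were called, which required an adjusted p of 0.05 or less and at least 1.5-fold. The shares of all 33255 tested probes called were 44.3% for lung minus liver, 33.3% for lung minus forestomach and 39.2% for liver minus forestomach. Cyp1a1 entered these tests through lung alone, Cyp1a2 through liver alone and Ahrr through forestomach alone, and Cyp1b1 did not pass in liver. Such probes had to differ from the tissues at background, so the counts support nothing for them, and their differences below are descriptions that rest in part on background values. Without mouse 1 in all 3 tissues, and likewise without mouse 2, 6 genes were called in each pair. Without mouse 1, lung minus liver was 1.06 for Ahr, 0.03 for Arnt, 1.77 for Tiparp, 1.00 for Cyp1a1 and 1.03 for Cyp1b1. Without mouse 2, lung minus forestomach was 2.41 for Ahr, 0.50 for Arnt, −0.90 for Ahrr, 0.66 for Tiparp, 1.01 for Cyp1a1, −1.60 for Cyp1b1 and −1.28 for Aldh3a1. In bulk tissue, fewer cells of a type and less RNA per cell cannot be told apart, and for liver neither can tissue and slide.

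Ahr in the 5 vehicle lungs was 1.89, 1.99, 2.05, 2.08 and 2.28, in the livers 0.67, 0.81, 0.91, 1.18 and 1.40, and in the forestomachs −0.55, −0.43, −0.32, −0.31 and 0.03 (log2 ratios). The 3 groups did not overlap. Lung exceeded liver by 1.06 ± 0.13 (SE; adjusted p = 4.9e-10) and forestomach by 2.38 ± 0.13 (adjusted p = 1.61e-21), and liver exceeded forestomach by 1.31 ± 0.13 (adjusted p = 9.67e-13). The second Ahr probe did not show these differences, at 1.18-fold or less. It was well above background in Cy5 on 1 of the 5 vehicle lungs and on 0 of the 5 vehicle livers and 0 of the 5 forestomachs, so it gives little information on the gene.

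Arnt, which also serves the hypoxia factors, differed least. Its log2 ratio was 0.05 ± 0.25 in lung, 0.03 ± 0.26 in liver and −0.37 ± 0.19 in forestomach (SD, n = 5), and no pair of tissues differed by as much as 1.5-fold. The larger of these differences, 0.42 ± 0.15 (SE) for lung minus forestomach, had an adjusted p of 0.0154 at 1.34-fold. The second Arnt probe ran the other way, lower in lung than in forestomach by 0.28 (difference −0.28 ± 0.11, SE; adjusted p = 0.039).

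Ahrr was not well above background in any vehicle liver and was so in 1 of 5 vehicle lungs and 2 of 5 forestomachs. Log2 ratios were −0.65 ± 0.20 in liver, −0.64 ± 0.30 in lung and 0.14 ± 0.27 in forestomach (SD, n = 5). The mean tissue signal of forestomach was 1.49-fold that of liver, a size that is uncertain because liver was at background. In log2 ratio liver minus forestomach was −0.79 ± 0.15 (SE). Lung minus forestomach was −0.78 ± 0.15. Without D0 mouse 5, the brightest forestomach, lung minus forestomach was −0.58 and fell short of 1.5-fold. The second Ahrr probe was not well above background on any of the 60 arrays.

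Tiparp was ordered alike by its 2 probes. Probe 1 was −0.94, −0.93, −0.84, −0.81 and −0.61 in vehicle lungs, −1.79, −1.77, −1.60, −1.33 and −1.29 in forestomachs and −2.91, −2.79, −2.55, −2.53 and −2.39 in livers. No group overlapped another. Lung exceeded liver by 1.81 ± 0.12 with probe 1 and 1.99 ± 0.13 with probe 2 (SE; adjusted p = 5.45e-20 and 1.21e-19), and forestomach by 0.73 ± 0.12 and 0.90 ± 0.13 (adjusted p = 4.39e-07 and 5.09e-08). Liver minus forestomach was −1.08 ± 0.12 and −1.09 ± 0.13 (adjusted p = 7.85e-12 and 1.98e-10).

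**Figure D2:**
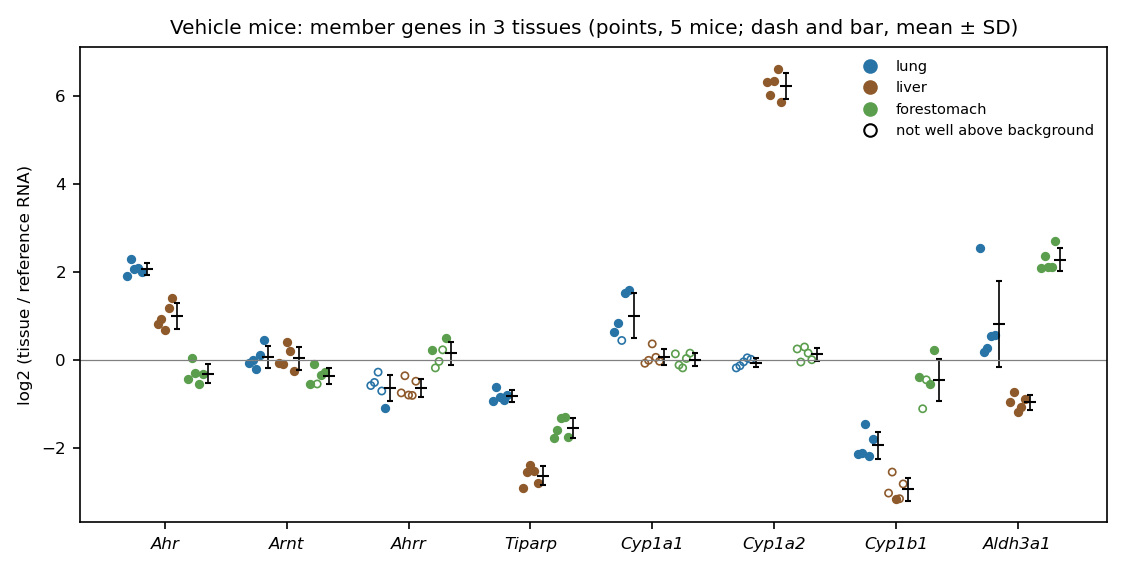
Log2 ratio of tissue to reference RNA (y axis) in the 5 vehicle mice for each gene (x axis) and tissue (colour), with the mean ± SD beside the points and open points where the tissue signal was not well above background. Cyp1a2 in liver stands at 6.22 ± 0.30, Aldh3a1 is highest in forestomach, and 1 vehicle lung (mouse 1) lies at 2.54 for Aldh3a1, above the other vehicle lungs.

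Cyp1a1 was near the limit of the array. In vehicle lung it was 0.44, 0.64, 0.84, 1.51 and 1.57, and its Cy5 signal was well above background in 4 of 5 mice. In vehicle liver and forestomach it was above background in 0 of 5, with means of 0.06 ± 0.18 and 0.00 ± 0.15 (SD). As bounds on the tissue signal, lung held at least 1.36-fold more than liver and at least 1.38-fold more than forestomach. In log2 ratio lung minus liver was 0.94 ± 0.23 (SE) and lung minus forestomach 1.00 ± 0.23. The reference signal was not well above background on any vehicle array either, and with the scanner program's processed signals, which are background-subtracted, the 2 differences were 3.28 and 3.39.

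Cyp1a2, which oxidizes aromatic amines and caffeine, was 5.85, 6.00, 6.30, 6.34 and 6.61 in vehicle liver, and not well above background in any vehicle lung or forestomach. On the Cy5 signal alone, without the reference and open to dye bias since no dyes were swapped, liver was at least 292.8-fold above lung and at least 274-fold above forestomach. In log2 ratio, where the lung and forestomach values are background in both channels, liver minus forestomach was 6.10 ± 0.26 (SE) and lung minus liver −6.29 ± 0.26. The reference signal of the same spot also differed between tissues, with a median of 294 in vehicle liver against 37.5 in lung and 37 in forestomach.

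Cyp1b1, the family member of extrahepatic tissues, was lowest in liver, where 1 of 5 vehicle arrays was above background and the mean was −2.95 ± 0.26 (SD). It was −2.19, −2.14, −2.12, −1.81 and −1.46 in lung and −1.12, −0.56, −0.46, −0.39 and 0.21 in forestomach, without overlap. Of the 5 vehicle forestomachs, 3 were well above background. Forestomach exceeded lung, with a difference of lung minus forestomach of −1.48 ± 0.20 (SE; adjusted p = 1.17e-08), and liver minus forestomach was −2.49 ± 0.20. Lung exceeded liver by 1.00 ± 0.20. As liver was mostly at background, the sizes of both differences against it are uncertain, and with the scanner program's processed signals they were −4.46 for liver minus forestomach and 2.67 for lung minus liver.

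Aldh3a1, an oxidizer of aromatic and lipid aldehydes known from cornea and stomach, was 2.08, 2.10, 2.11, 2.36 and 2.69 in vehicle forestomach and −1.19, −1.07, −0.96, −0.90 and −0.74 in liver with probe 1. Liver minus forestomach was −3.24 ± 0.26 with probe 1 and −4.66 ± 0.29 with probe 2 (SE; adjusted p = 2.75e-16 and 2.66e-20). In vehicle lung it was 0.18, 0.26, 0.53, 0.56 and, in mouse 1, 2.54, which lies inside the range of forestomach. Lung minus forestomach was −1.46 ± 0.26 (adjusted p = 3.5e-06) and −1.93 without mouse 1. Lung minus liver was 1.79 ± 0.26 (adjusted p = 2.3e-08) and 1.36 without it. Here too the reference signal differed, with a median of 6221 in vehicle forestomach against 2479 in lung and 1970 in liver.

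Other genes of the pathway also differed by tissue. Of the 4 genes of the resting receptor complex, the heat shock protein 90 genes Hsp90aa1 and Hsp90ab1 were higher in lung than in liver, by 1.52 ± 0.33 and 1.01 ± 0.23 (SE). Of the 4, 0 were called lower in lung than in liver. Of 10 further battery genes, 8 were called lower and 2 higher in lung than in forestomach, with a median difference of −1.38, where 14.5% of all probes were called lower and 18.7% higher. Among them Nqo1, a quinone reductase, differed by −3.71 ± 0.28, Cyp2s1, an epithelial cytochrome, by −1.49 ± 0.21 and Gsta1, a glutathione transferase, by −6.83 ± 0.53. Of 8 partners in the metabolism of polycyclic hydrocarbons, 6 were lower and 1 higher in lung than in liver (median −1.60), where 19% of all probes were called lower and 25.3% higher. Ephx1, the epoxide hydrolase that follows Cyp1a1 in their oxidation, differed by −0.94 ± 0.16, and the exception was Por, the electron donor of the cytochromes, at 1.00 ± 0.20.

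Whether BghiP altered the pathway was asked of each dose against vehicle, with the same 5 vehicle mice in every such comparison, on the genes above background on at least 5 of the 20 arrays of a tissue. These were 6 genes (10 probes) in lung, 5 genes (8 probes) in liver and 6 genes (9 probes) in forestomach. Ahrr and Cyp1a2 in lung, Cyp1a1, Ahrr and Cyp1b1 in liver, and Cyp1a1 and Cyp1a2 in forestomach did not pass. limma called 0 member probes at D1, D2 or D3 in any tissue, 0 for the mean of the 3 doses and 0 for a slope on dose. The background was the same, with 0% of all tested probes called at every dose and for the mean in all 3 tissues, and for the slope 0.239% in liver and 0% in the other tissues. At an unadjusted p under 0.05 there were 0 member probes at D1 in any tissue.

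In lung, 1 of 10 member probes had an unadjusted p under 0.05 at D2 (Aldh3a1, probe 2), at D3 (Tiparp, probe 2), for the mean (Aldh3a1, probe 2) and for the slope (Tiparp, probe 2). Of all lung probes 2.23% did at D1, 3.42% at D2, 4.8% at D3, 5.03% for the mean and 4.79% for the slope. In liver, 0 of 8 did at D2 and for the mean, and 2 of 8 at D3 and for the slope (Aldh3a1 and Tiparp, probe 2 of each), against 3.03% of all liver probes at D1, 4.14% at D2, 12.2% at D3, 6.19% for the mean and 14.9% for the slope. In forestomach, 0 of 9 did at D2 and for the mean and 1 of 9 at D3 and for the slope (Arnt, probe 2), against 9.37% at D1, 3.63% at D2, 1.5% at D3, 3.62% for the mean and 2.36% for the slope. Over the member probes the D3 medians were −0.08 (lung), −0.18 (liver) and −0.03 (forestomach) on the log2 scale, beside 0.01, 0.00 and 0.01 over all probes.

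**Figure D3:**
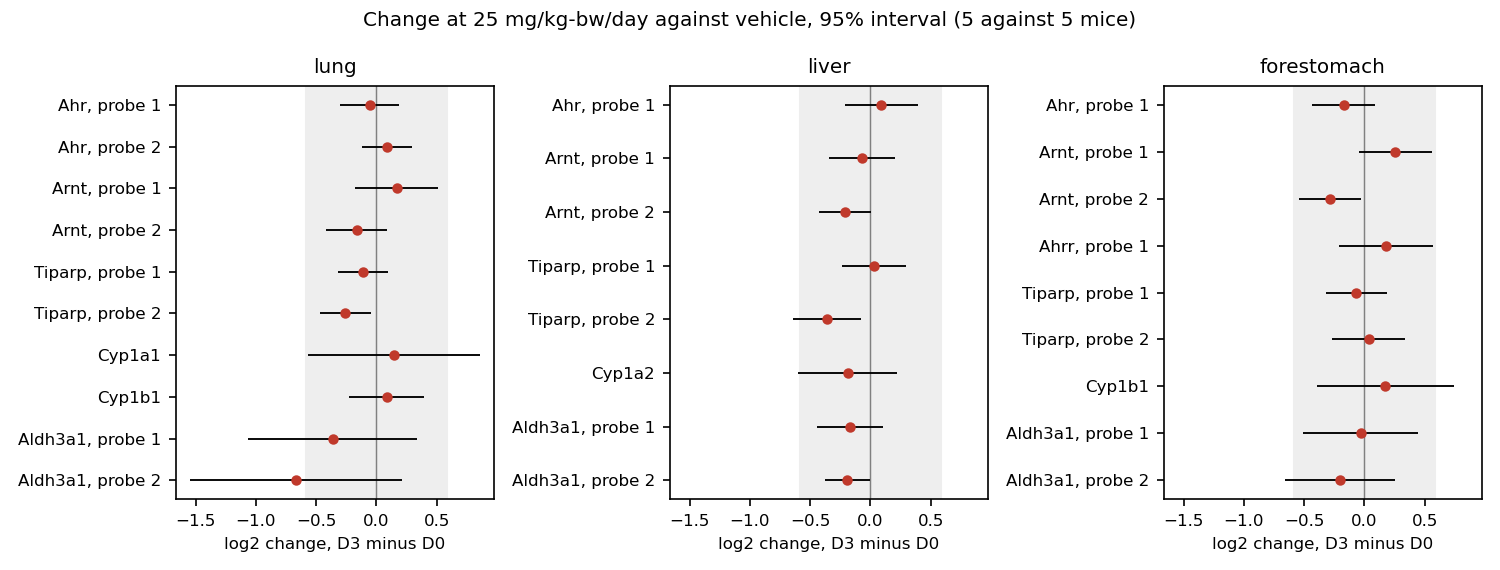
Log2 change at D3 against D0 (x axis) with its 95% interval for each member probe tested (y axis) in each tissue, 5 against 5 mice, with changes under 1.5-fold shaded. The points lie between −0.67 and 0.25, and the widest intervals are those of Cyp1a1 and Aldh3a1 in lung.

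Cyp1a1 in lung had no called change at any dose. The 5 mice were 0.58, 0.66, 1.23, 1.34 and 1.39 at D1, 0.12, 0.46, 0.65, 0.82 and 1.07 at D2, and 0.37, 0.45, 1.12, 1.13 and 2.63 at D3, against a vehicle range of 0.44 to 1.57. Of these 15 mice, 1 lay above that range (2.63, D3 mouse 18) and 2 below it. The change at D3 was 0.14 ± 0.34 (SE; adjusted p = 0.998), with a 95% interval from 0.67-fold to 1.81-fold. Without mouse 18 it was −0.23. Under the alternatives that left out no mouse and kept the gene, the D3 change ran from 0.13 to 0.43, and 0 were called. The reference signal was not well above background on any lung array, so the sizes of these changes are uncertain. Within slides, D3 minus D0 was −0.47, −0.45, −0.38 and −0.19 on 4 of the 5, and 2.20 on the slide of mouse 18. Hepatocyte and squamous markers of mouse 18 were at 0.02 and 0.01, and its skeletal muscle markers at 0.52, the second highest of the 20 lungs. Their part in its value was not tested.

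Cyp1a2 in liver stayed high at every dose, with 5 mice at 5.72, 6.23, 6.38, 6.39 and 6.42 at D1, 5.49, 5.75, 6.18, 6.47 and 6.57 at D2, and 5.73, 5.74, 6.06, 6.30 and 6.32 at D3. All groups overlapped. The change at D3 was −0.19 ± 0.20 (SE; adjusted p = 0.739), with a 95% interval from −0.60 to 0.22. Outside liver it was above background on 4 of 40 arrays. Of these, lung of D3 mouse 20 (1.81) and forestomach of D2 mouse 15 (2.20) had hepatocyte markers at 4.75 and 5.22. Forestomach of D1 mouse 10, with hepatocyte markers at 5.88, had Cyp1a2 at 0.43 and not well above background, as was the case on D1 mouse 7 (5.20) and D3 mouse 19 (5.07), so that these markers and Cyp1a2 did not always appear together. Lung of D3 mice 17 (−0.14) and 19 (0.48) had hepatocyte markers at 0.01 and 0.07, and their spots were above background in the reference channel as well. That last feature was absent from the other 18 lungs.

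**Figure D4:**
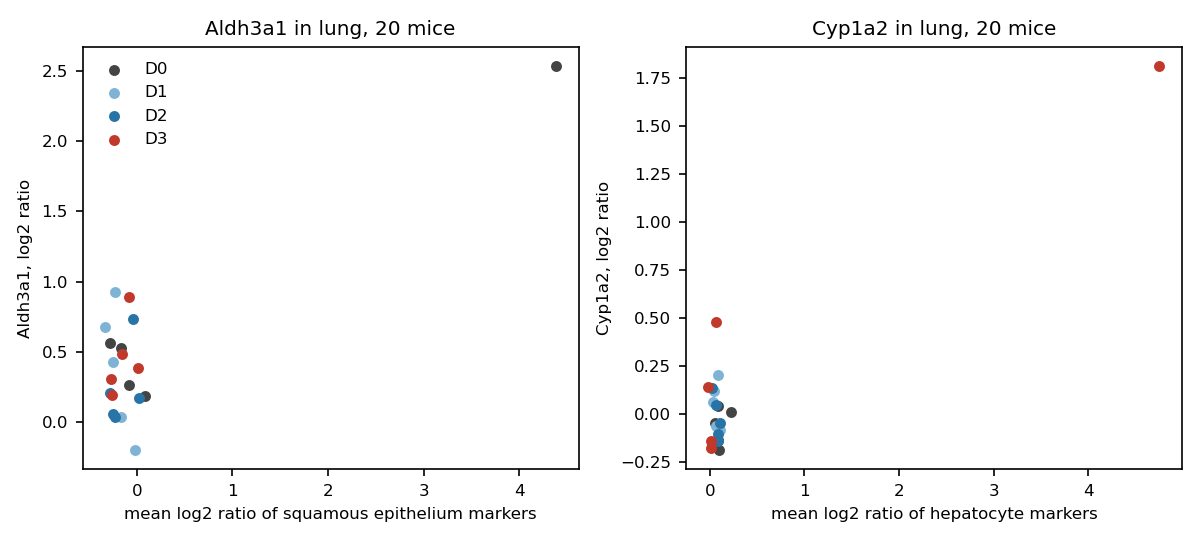
Log2 ratio of Aldh3a1 (left) and Cyp1a2 (right) in the 20 lungs (y axes) against the mean log2 ratio of squamous epithelium and of hepatocyte markers on the same arrays (x axes), coloured by dose. Mouse 1 (D0) stands apart on the left at 4.39 and 2.54, and mouse 20 (D3) on the right at 4.75 and 1.81, while the other 19 lungs of each panel lie near 0 on the x axis.

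Aldh3a1 in lung was 0.19, 0.31, 0.38, 0.48 and 0.89 at D3 with probe 1. Its change was −0.36 ± 0.34 (SE; adjusted p = 0.998), and 0.07 when vehicle mouse 1 was left out, so the direction rested on that lung. Without D3 mouse 20, lung changes at D3 were −0.47 for Aldh3a1, 0.15 for Cyp1a1, 0.06 for Cyp1b1, −0.13 for Tiparp, 0.05 for Arnt and 0.00 for Ahr, and 0 were called. Without D0 mouse 1 the others were 0.05 for Cyp1a1, 0.04 for Cyp1b1, −0.14 for Tiparp, 0.14 for Arnt and −0.10 for Ahr. With probe 2 the mean of the 3 doses was −0.75 ± 0.34 (adjusted p = 0.968), where mouse 1 was at 3.37 and the other vehicle lungs at 0.32 to 0.64. In forestomach the D3 change was −0.03 ± 0.23 with probe 1, with mice from 1.63 to 2.80.

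In liver Aldh3a1 was the member with the lowest adjusted p for a slope once slide was a block, while without the block that was Tiparp. Probe 2 of Aldh3a1 read −1.81, −1.79, −1.63, −1.61 and −1.38 at D0 and −1.94, −1.85, −1.81, −1.80 and −1.77 at D3, so that 2 of the 5 D3 mice lay inside the vehicle range and 3 below it. The slope was −0.0074 ± 0.0033 (SE) log2 units per mg/kg-bw/day, with an adjusted p of 0.292. With slide as a block it was −0.0093 ± 0.0025, and its adjusted p of 0.048 passed the threshold for a slope, which 2.6% of all liver probes did in that fit. Probe 1 had −0.0089 ± 0.0037 with the block (adjusted p = 0.177). The D3 change of probe 2 with the block was −0.24 ± 0.07 (adjusted p = 0.0935), under 1.5-fold.

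Tiparp probe 2 was 0.26, 0.43, 0.43, 0.52 and 0.63 at D3 in lung against 0.54, 0.60, 0.66, 0.85 and 0.92 at D0. The groups overlapped, and D3 minus D0 was negative on 5 of 5 slides, from −0.49 to −0.03. The change was −0.26 ± 0.10 (SE; adjusted p = 0.923, or 0.163 with slide as a block), and with probe 1 −0.11 ± 0.10, also negative on 5 of 5 slides, from −0.21 to −0.01. In liver probe 2 changed by −0.36 ± 0.14 (adjusted p = 0.293, or 0.203 with the block) while probe 1 changed by 0.03 ± 0.13, so the 2 probes of the gene disagreed there.

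Arnt probe 2 in forestomach was well above background in Cy5 on 3 of 5 D0 and 4 of 5 D3 arrays. At D3 it was −0.52, −0.51, −0.39, −0.39 and −0.29, all below the lowest vehicle mouse at −0.27. It was the one member probe without overlap between D3 and D0, 1 of 9 in forestomach beside 0 of 10 in lung and 0 of 8 in liver. Among all probes with complete values this held for 0.246% in forestomach, 0.804% in lung and 2.74% in liver. The change was −0.29 ± 0.12 (SE; adjusted p = 1, or 0.774 with slide as a block). Probe 1 of the gene changed by 0.25 ± 0.14, in the other direction. In lung probe 1 changed by 0.17 ± 0.16 (adjusted p = 0.998, or 0.171 with slide as a block) and was positive on 5 of 5 slides, from 0.02 to 0.24, while probe 2 changed by −0.17 ± 0.12.

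The changes of Ahr, Cyp1b1 and Ahrr were not called either. At D3, Ahr was 1.74 to 2.31 in lung, 0.78 to 1.33 in liver and −0.66 to −0.24 in forestomach, with changes of −0.06 ± 0.12, 0.09 ± 0.15 and −0.17 ± 0.12 (SE). The last was negative on 5 of 5 slides, from −0.32 to −0.07. Cyp1b1 changed by 0.08 ± 0.15 in lung and 0.17 ± 0.27 in forestomach, and Ahrr by 0.18 ± 0.19 in forestomach. These forestomach values moved with single vehicle mice. Without D0 mouse 2, whose array carried the alveolar markers, Cyp1b1 was at 0.01, Ahrr at 0.10 and Ahr at −0.09, and without D0 mouse 5 Cyp1b1 was at 0.34 and Ahrr at 0.27. With the scanner program's processed signals Ahrr was at 0.75 and Cyp1b1 at 0.34 in forestomach and 0.20 in lung, and neither was called. Adjusted p-values of these 6 changes with all mice were 0.851 or more. An absent call does not show equal levels. The 95% intervals still allowed, for example, a change of Cyp1b1 in forestomach from −0.40 to 0.74.

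With slide as a block, 0.0709% of all lung probes, 0.0966% of liver probes and 0% of forestomach probes were called at D3, and 0.309% and 0% had a called slope in lung and forestomach. Members called at D3 in that fit were 0 in every tissue, with an unadjusted p under 0.05 for 3 of 10 lung probes, 4 of 8 liver probes and 2 of 9 forestomach probes, beside 15.6%, 17.9% and 6.4% of all probes. Whether the D3 change differed between tissues was tested directly, and 0 member genes were called for any pair, as were 0% of all probes for each of the 3 pairs. At an unadjusted p under 0.05 there were 0 of 12 member probes for lung minus liver, 0 of 12 for lung minus forestomach and 1 of 12 (Tiparp, probe 2) for liver minus forestomach. The shares of all probes were 2.98%, 2.05% and 4.25%.

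Of the related genes tested for dose, 0 were called in any tissue. At D3 in lung, 4 of 4 receptor complex genes, 4 of 6 related transcription factors, 5 of 5 coactivators, 10 of 13 further battery genes and 8 of 8 metabolism partners were tested. Among those with an unadjusted p under 0.05 in lung, named after their values were seen, were Ephx1, at 0.48 ± 0.11 (SE; adjusted p = 0.504), Akr1a1, an aldo-keto reductase, at 0.29 ± 0.12 (0.952), and Hsp90aa1, at −0.63 ± 0.29 (0.998). Hsp90aa1 changed by −0.77 ± 0.35 in liver (adjusted p = 0.387) and −0.31 ± 0.29 in forestomach. At D3 the further battery genes had a median change of 0.02 in lung, of 0.13 in liver, and −0.03 for forestomach. For the receptor complex genes the medians were −0.32, −0.17 and −0.19.

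Whether members varied together between mice was tested in 18 relations, each over 20 mice with two-sided permutation tests. Cyp1a1 in lung had no relation with the 5 other members tested there, with r from −0.11 to 0.09 and adjusted p of 0.914 or more. After slide and dose means were removed, r with Cyp1b1 was −0.59 (adjusted p = 0.0495), against −0.11 before, and that adjustment takes no account of the means removed. Ahr in lung and in forestomach of the same mouse were related, with r = 0.69 (permutation p = 0.00088, adjusted 0.0158) and rho = 0.66 (permutation p = 0.00208, adjusted 0.0374). Without the 2 mice farthest from the median in lung r was 0.64 (adjusted p = 0.0747), and after slide and dose means were removed 0.63 (adjusted p = 0.0495). The latter p-value again takes no account of the means removed. Both arrays of a mouse were on the same slide. Arnt in the same pair of tissues had r = 0.64 (permutation p = 0.00266, adjusted 0.0239) and rho = 0.52 (permutation p = 0.0193, adjusted 0.174), but −0.06 once slide and dose means were removed together. The 2 were not removed separately. The other 16 relations had adjusted p of 0.0782 or more.

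The genes whose log2 ratio was most like that of Cyp1a1 over the 20 lungs were L1td1 (r = 0.77), Lifr (0.67) and Olfr332 (0.67), given as a description. For Cyp1a2 over the 20 livers they were Ahsg (0.99), Trf (0.98) and Cfb (0.98), which encode abundant secreted liver proteins. Slide was not removed from these values. Cyp1a2 had D0 means of 6.30, 6.48 and 5.93 on slides 6, 7 and 8, and the part of slide was not tested.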

How the data were processed

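The deposited scanner files hold spot intensities from 2-colour Agilent SurePrint G3 arrays, which the authors extracted with Feature Extraction 10.7.3.1 (mm9 design, per the file headers), with well-above-background and outlier flags. The authors also deposited log2 ratios of the same arrays after their own normalization, used here as an alternative, and each array correlated with them at 0.991 to 0.999. No dyes were swapped, so a dye effect cancels in comparisons of a probe between groups only.

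Median intensities without background subtraction were loess-normalized within arrays in limma 3.58.1 (R 4.3.3). Of 62976 spots, 3671 control spots were dropped, outlier-flagged values (0.46%) were set missing, and spots were averaged to 55681 probes, 26413 of them named through RefSeq accessions (GRCm38.p6 names). Probes entered a tissue's tests when 5 or more of its 20 arrays had a Cy5 signal well above background, which gave 31022 in lung, 25893 in liver and 25070 in forestomach, 33255 in any. limma's lmFit and eBayes gave all changes, tissue differences, SEs and adjusted p-values (Benjamini-Hochberg over all tested probes), which stand in for the permutation-based MAANOVA of the study. A call needed an adjusted p of 0.05 or less and 1.5-fold, and a slope the adjusted p alone. Bounds ("at least") compare Cy5 levels with the lowest signal well above background, or with the measured signal where that was higher. Relations used 100000 resamples (scipy 1.17.1). The code was tested on simulated data.

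The 8 members are named throughout with every probe. Related genes are named if called, and any others are marked; some are not reported here. The members and lists were chosen with earlier results of these data known. Mouse numbers pair the samples across tissues, since the titles give 1 animal per number. Deviations of the same mouse correlated at a median of 0.253 between lung and forestomach, 0.0708 between lung and liver and 0.0106 between liver and forestomach. In these pairs the same mouse correlated better than any other of its dose in 16, 11 and 2 of 20 mice. Lung and forestomach of a mouse shared a slide, so mouse and slide cannot be told apart there. Alternatives were other signals, background correction, normalization, filters, slide or mouse as a block, and leaving out each mouse.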

Additional observations from a re-analysis of the deposited data

Results flagged for a closer look

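In 68 groups of 5 mice the highest or lowest mouse was set against the nearest of the others, and 3 groups had a mouse whose gap exceeded Dixon's 95% critical value of 0.71 of the group's range. Chance alone gives this in about 1 of 20 groups. Aldh3a1 in lung of D0 mouse 1 was 2.5374 against 0.5612 in the nearest mouse, on the array that also carried the squamous epithelium markers. Aldh3a1 in lung of D2 mouse 14 was 0.7333 against 0.204. Cyp1a2 in liver of D1 mouse 10 was 5.7196 against 6.2302, the low end of its group. That mouse was the one D1 liver on slide 8, and its hepatocyte markers were at 7.38 against 8.00 to 8.18 in the other 4 D1 livers. The part of slide or markers in its value was not tested.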

How the results depend on the processing

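Under every alternative run, 0 member genes were called at D1, D2 or D3 or for a D3 change between tissues. For the slope, slide as a block gained 1 member probe (Aldh3a1, probe 2, in liver, at −0.0093 log2 units per mg/kg-bw/day, adjusted p = 0.048, limma). Vehicle tissues gave 4 to 6 genes for lung minus forestomach and 5 to 6 for each of the other 2 pairs. Of 1450 alternative dose values 46 changed sign, all of changes that were not called, as did 20 of 674 D3 changes set between tissues and 7 of 698 vehicle tissue differences, again of differences not called. The relation of Arnt in lung with Arnt in forestomach turned from 0.64 to −0.06 (−0.06073) once slide and dose means were removed. Among single genes that stayed tested, the 1 tissue call that was lost was Ahrr, lung minus forestomach, without D0 mouse 5 (−0.58 on the log2 scale). Leaving out 1 mouse moved the D3 change in lung between −0.23 and 0.33 for Cyp1a1 and between −0.52 and 0.07 for Aldh3a1. Processed signals widened differences that involve probes near background, to 0.75 for the D3 change of Ahrr in forestomach, to −2.62 and −3.32 for Ahrr in lung and in liver minus forestomach and to −4.46 for Cyp1b1 in liver minus forestomach and 2.67 in lung minus liver.

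With mouse number as a replicate block, to use the pairing across tissues, the calls of members did not change. Lung minus forestomach of Ahr stayed at 2.38 (adjusted p = 9.3e-18, limma). That of Cyp1a1 stayed at 1.00, a description only, since Cyp1a1 entered these tests through lung alone. Weak signals limit Cyp1a1, Ahrr, the second probes of Ahr and Ahrr, and Cyp1b1 in liver. In forestomach, Arnt probe 2 was well above background on 15 and Cyp1b1 on 17 of 20 arrays.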
